A study of Mus musculus with 6 samples.

Results

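The genes described here are 40 interferon-stimulated and antigen presentation genes, a list of symbols whose rule used no measured value, and all 40 were found by symbol among the 21686 genes of the deposited table. By role they were 4 signal and transcription factors, 4 RNA sensors, 14 direct antiviral effectors, 2 genes of the ISG15 system and its feedback, 9 other interferon-stimulated genes and 7 antigen presentation genes. Their RNA was measured by sequencing in MC3T3-E1 Subclone 14, a clonal line of mouse osteoblast precursors, so all groups share 1 genotype. Control cells received 100 µL of PBS, the dexamethasone group 10 µM of this synthetic glucocorticoid, and the dexamethasone + EPC-EVs group 10 µM dexamethasone with 100 µg of extracellular vesicles from mouse bone marrow endothelial progenitor cells (EPCs). Each treatment lasted 72 hours, and each group had 2 libraries, which the study calls biological replicates. The time, the dose of vesicles and the cell type are those of the sample labels, and other texts of the study differ from them in places. No group received vesicles without dexamethasone.

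Type I interferons bind the receptor IFNAR, whose kinases JAK1 and TYK2 phosphorylate STAT2, and a complex of STAT2 with IRF9 binds the interferon-stimulated response element (ISRE) in the promoters of its target genes. Targets include sensors of viral RNA, proteins that block viral replication and the machinery that loads peptides on class I molecules of the major histocompatibility complex (MHC). In that machinery immunoproteasome subunits cut proteins, the TAP transporter moves the peptides into the endoplasmic reticulum, tapasin holds the empty class I molecule at TAP, and beta-2-microglobulin is the light chain that every classical class I molecule needs at the cell surface. Glucocorticoids are known to restrain inflammatory genes.

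Total counts were between 5146760 and 13182014, so that a count of 0 allows up to 3 counts, 0.228 to 0.583 CPM (counts scaled to a common library total), for counting error only. The dexamethasone + EPC-EVs libraries were the deepest, at 12864009 and 13182014 counts against 5146760 to 6583735 in the others, and had the smallest share of counts from mitochondrially encoded genes, at 0.465% and 0.727% against 5.546% to 8.617%. Depth, this share and the vesicle treatment cannot be told apart in these 6 libraries. The osteoblast markers Runx2, Col1a1, Col1a2, Spp1 and Sparc were above 100 CPM in every library, but Alpl, Bglap, Bglap2 and Ibsp, markers of mature osteoblasts, were below 7 CPM in every library. The defining leukocyte markers Adgre1 and Cd3e and the endothelial markers Pecam1, Cdh5, Tek, Emcn and Prom1 were below 3 CPM in every library. Other genes of these marker lists were not: Cd14, of monocytes, was at 24.2 and 33.4 CPM with EPC-EVs against 3.06 and 7.21 CPM in dexamethasone (called higher), Csf1r reached 37.0 CPM and Lyz2 15.5 CPM, and the progenitor marker Cd34 was at 239 to 411 CPM. In RNA from whole cultures, fewer cells of a type and less RNA per cell cannot be told apart, nor can RNA of the cells and RNA carried in by the vesicles.

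To show what the members share beyond their names, promoters were read from RefSeq (GRCm38.p6), from 250 bases before to 50 bases after each gene's start, on the strand of the gene. Windows were matched for 33 of the 40 members, and those of Parp9, Dhx58, Parp14, Mx1, Mx2, Usp18 and Rtp4 are not analysed here. The core of the ISRE, GAAANNGAAA on either strand, stood in the window of 12 of the 33 members (36.4%), against 3.44% of all 32851 windows and 3.99% of the 27025 genes with one. The shorter core of the gamma-activated site, TTCNNNGAA, which can overlap the ISRE core, stood in 7 of the 33 (21.2%), against 8.3% of windows and 9.55% of genes. A match of letters is a description and not a measured binding site. The stretches around the ISRE cores of 6 members are printed below, since these genes include the interferon transcription factor Stat2, the ubiquitin-like Isg15, the RNA-binding Ifit1, and 3 genes that were lower with EPC-EVs. Capitals mark the core, as its reverse complement where it lies on the opposite strand.
B2m, chr2:122147538-122147567, plus strand: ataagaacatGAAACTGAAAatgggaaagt
Stat2, chr10:128270266-128270295, plus strand: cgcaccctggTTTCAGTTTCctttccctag
Isg15, chr4:156200865-156200906, minus strand: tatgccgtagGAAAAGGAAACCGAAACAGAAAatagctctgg
Ifit1, chr19:34640775-34640823, plus strand: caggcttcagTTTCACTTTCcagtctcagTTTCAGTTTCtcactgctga
Bst2, chr8:71537577-71537612, minus strand: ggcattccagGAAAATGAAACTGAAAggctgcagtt
Eif2ak2, chr17:78882535-78882564, minus strand: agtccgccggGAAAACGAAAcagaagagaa

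The 250 bases before the RefSeq starts of B2m and Tapbp are shown in full, because these class I genes had the largest fall and the largest rise among the members, as counted, between dexamethasone + EPC-EVs and dexamethasone. The B2m stretch holds 1 ISRE core, in capitals, and the Tapbp stretch holds none. The RefSeq start of Tapbp lies inside the gene as GENCODE places it, from position 33915899, and the bases before that earlier start were not searched.
B2m, chr2:122147437-122147686, plus strand: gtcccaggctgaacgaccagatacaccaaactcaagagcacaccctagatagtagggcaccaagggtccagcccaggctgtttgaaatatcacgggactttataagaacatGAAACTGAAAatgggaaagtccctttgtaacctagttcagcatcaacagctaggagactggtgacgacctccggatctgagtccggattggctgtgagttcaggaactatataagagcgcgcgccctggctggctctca
Tapbp, chr17:33919228-33919477, plus strand: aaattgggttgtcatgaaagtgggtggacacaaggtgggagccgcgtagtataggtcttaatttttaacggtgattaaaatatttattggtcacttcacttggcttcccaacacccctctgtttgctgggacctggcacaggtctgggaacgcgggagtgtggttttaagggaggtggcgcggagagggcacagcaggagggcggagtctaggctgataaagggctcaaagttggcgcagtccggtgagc

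Levels of different genes were compared by FPKM, counts scaled to gene length and library total. B2m was the most abundant member in all 6 libraries, at 4820 and 7190 FPKM in control, 4740 and 5350 in dexamethasone, and 966 and 1000 in dexamethasone + EPC-EVs. H2-D1, a class I heavy chain, ranked second in the control and dexamethasone libraries, at 92.8 to 163 FPKM. With EPC-EVs the second place was taken by Tapbp, at 221 and 255 FPKM beside 216 and 236 FPKM of H2-D1, values that overlap. Cmpk2, a mitochondrial nucleotide kinase, was the lowest member in every library, with 0 and 13 counts in control, 2 and 0 in dexamethasone, and 2 and 17 in dexamethasone + EPC-EVs, and it was too low to be tested in the comparisons with dexamethasone. Together the members took 0.737% and 0.909% of all counts in control, 0.743% and 0.801% in dexamethasone, and 0.452% and 0.509% in dexamethasone + EPC-EVs. Without B2m these shares were 0.322% and 0.291%, 0.336% and 0.341%, and 0.369% and 0.423%, so the smaller share with EPC-EVs rested on B2m.

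The first comparison asks what dexamethasone does to these genes. None of the 39 members tested was called between dexamethasone and control at an adjusted p under 0.05 by edgeR's quasi-likelihood test, where 0.0544% of all genes tested were called (7 of 12879). At an unadjusted p under 0.05 there were 5 of the 39, against 10.9% of all genes, and DESeq2 called none. The median log2 fold change of the members was -0.01, and 0.01 over all genes. The 5 were higher for Bst2, H2-D1 and Irf7 and lower for Mx2 and Ifit1, and none of these directions is a call.

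Bst2 encodes tetherin, which holds budding viruses at the cell surface, and had the smallest p. It was at 31.9 and 29.5 CPM in control and 69.0 and 55.6 CPM in dexamethasone, a log2 difference of 1.01 ± 0.24 (SE, n = 2 libraries per group, edgeR's quasi-likelihood test, adjusted p = 0.272). Both dexamethasone libraries lay above both control libraries. Irf7, a transcription factor that amplifies interferon production, was at 22.2 and 15.9 CPM in control and 33.3 and 38.1 CPM in dexamethasone, a log2 difference of 0.90 ± 0.30 (edgeR, adjusted p = 0.351). H2-D1 was at 304 and 245 CPM in control and 403 and 392 CPM in dexamethasone, a log2 difference of 0.53 ± 0.16 (edgeR, adjusted p = 0.31). For both genes, too, the groups did not overlap, but the genes were picked by their small p, so this adds no support. With the trend of counts on GC content and length removed, as described further down, the differences shrank to 0.12 for H2-D1, 0.67 for Bst2 and 0.55 for Irf7, and none was called.

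Of the 6 members with the smallest p, Mx2, Mx1 and Ifit1, all listed with the antiviral effectors, had lower values in dexamethasone. Mx2, of the dynamin-like GTPase family and annotated in GENCODE as a polymorphic pseudogene, was at 20.5 and 16.3 CPM in control and 7.13 and 11.3 CPM in dexamethasone, a log2 difference of -1.0 ± 0.42 (edgeR, adjusted p = 0.425). Its relative Mx1 was at 13.8 and 32.8 CPM in control and 10.2 and 13.7 CPM in dexamethasone, a log2 difference of -0.97 ± 0.45 (edgeR, adjusted p = 0.467). The higher control library set most of the Mx1 difference, since the other 3 libraries lay between 10.2 and 13.8 CPM. Ifit1, which binds foreign RNA, was at 107 and 99.1 CPM in control and 76.7 and 79.1 CPM in dexamethasone, a log2 difference of -0.41 ± 0.18 (edgeR, adjusted p = 0.447). Isg15 was at 16.6 and 14.1 CPM in control and 27.4 and 16.5 CPM in dexamethasone, with overlapping groups. Control replicate 1 decided the count of calls: without it, 10 members were called (7 higher and 3 lower, where 16.0% of all genes were called), and without control replicate 2 only Bst2 was, each time with the lone control library assumed to vary like the dexamethasone pair.

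The second comparison asks what the vesicles change in cells that also receive dexamethasone. Of the 39 members tested, 9 were higher and 7 lower in dexamethasone + EPC-EVs than in dexamethasone (edgeR's quasi-likelihood test, adjusted p under 0.05), and 23 were not called. Over all genes tested 20.9% were called higher (2832 of 13556) and 18.9% lower (2565). The members' 23.1% and 17.9%, as counted, were near the background. With the GC and length trend removed, as described further down, 33.3% of the members were called lower, against 16.7% of all genes. Those called higher were then 15.4%, against 14.3%. As counted, the median log2 fold change of the members was -0.20, and 0.01 over all genes. The list therefore did not move as 1 block. Tapasin and Ifi35 rose most, B2m and Samd9l fell most, and Isg15, Ifit1, Ifit3 and Irf7, in common use as markers of an interferon response, were among the 23.

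**Figure D1:**
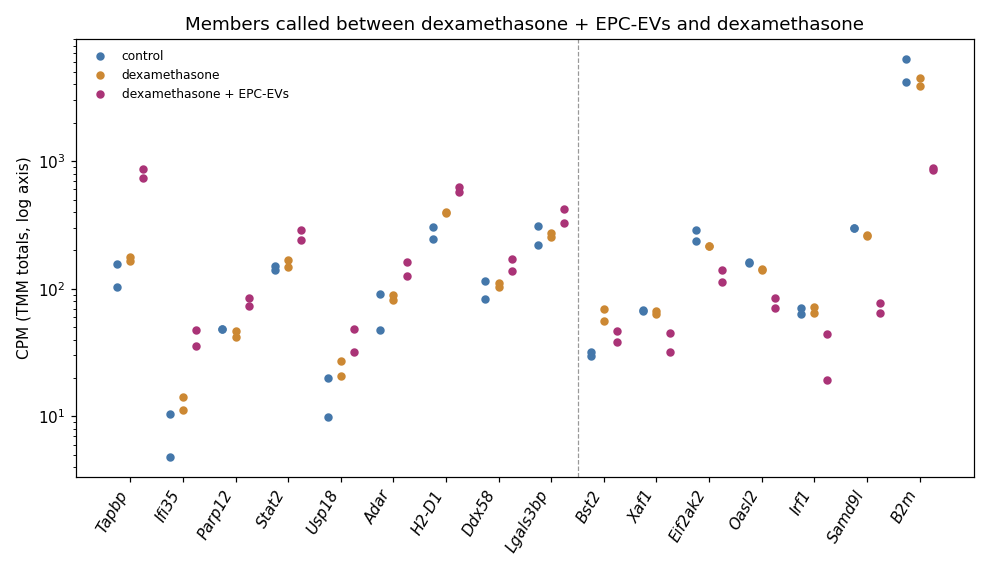
CPM on a log axis (library totals after TMM normalization) of the 16 members called between dexamethasone + EPC-EVs and dexamethasone, 1 point per library, with the members called higher left of the dashed line and those called lower right of it. Tapbp stands at 742 and 869 CPM with EPC-EVs against 178 and 165 in dexamethasone, and B2m at 847 and 890 against 3900 and 4460.

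Antigen presentation genes moved in both directions. Tapbp, which encodes tapasin, was at 155 and 104 CPM in control, 178 and 165 CPM in dexamethasone and 742 and 869 CPM in dexamethasone + EPC-EVs. It rose 4.54-fold with EPC-EVs, a log2 fold change of 2.18 ± 0.13 (SE, n = 2 per group, edgeR's quasi-likelihood test, adjusted p = 7.99e-07). Every EPC-EVs library lay above every other library. Tapbp (chr17:33915899-33929292, plus strand, GRCm38) overlaps Zbtb22 on the same strand, so its count is less certain. B2m (chr2:122147686-122153083, plus strand) was at 4140 and 6340 CPM in control, 3900 and 4460 CPM in dexamethasone and 847 and 890 CPM in dexamethasone + EPC-EVs. It fell 4.97-fold, a log2 fold change of -2.31 ± 0.12 (edgeR, adjusted p = 2.43e-07). The EPC-EVs values were all below the lowest of the other 4 libraries. B2m overlaps Patl2 on the opposite strand, and as the use of strand in the counting is unknown here, its count may hold reads of Patl2.

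As counted, the heavy chains, the partners of B2m, did not fall with it. H2-D1 was at 403 and 392 CPM in dexamethasone and 569 and 629 CPM in dexamethasone + EPC-EVs, and rose by a log2 fold change of 0.54 ± 0.12 (edgeR, adjusted p = 0.00343). H2-K1 was at 228 and 208 CPM in control, 275 and 262 CPM in dexamethasone and 308 and 309 CPM in dexamethasone + EPC-EVs, a log2 difference of 0.15 ± 0.12 that was not called (edgeR, adjusted p = 0.34). Both heavy chain values turned to -0.06 and -0.33 once the trend of counts on GC content and length was removed, as described further down. There H2-K1 was called lower (edgeR, adjusted p = 0.0493), and the fall of B2m shrank from -2.31 to -1.47. Reads of these closely related genes may be shared between them. The ratio of B2m FPKM to the summed FPKM of H2-K1 and H2-D1 was 23.4 and 42.2 in control, 17.4 and 20.5 in dexamethasone, and 2.91 and 2.86 in dexamethasone + EPC-EVs. Both EPC-EVs ratios were far below the other 4, with a lower light chain and heavy chains that, as counted, were not lower.

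As counted, the peptide supply genes of the list were not called. Tap1, a subunit of the peptide transporter, was at 58.5 and 35.4 CPM in control, 65.4 and 62.6 CPM in dexamethasone and 56.2 and 49.2 CPM in dexamethasone + EPC-EVs, a log2 difference between the last 2 groups of -0.33 ± 0.18 (edgeR, adjusted p = 0.163). Psmb8, an immunoproteasome subunit, was at 26.7 and 25.5 CPM in control, 21.4 and 21.3 CPM in dexamethasone and 36.2 and 23.9 CPM in dexamethasone + EPC-EVs, a log2 difference of 0.44 ± 0.26 (edgeR, adjusted p = 0.201). The other immunoproteasome subunit, Psmb9, was below 13 CPM in every library and was not called. With the GC and length trend removed, Tap1 (-0.91, edgeR, adjusted p = 0.00248) and Psmb9 (-1.49, edgeR, adjusted p = 0.0229) were called lower, and Psmb8 was not called. Tap1 and Psmb9 overlap on opposite strands, and how the counting treated strand is not given in the sources used here.

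**Figure D2:**
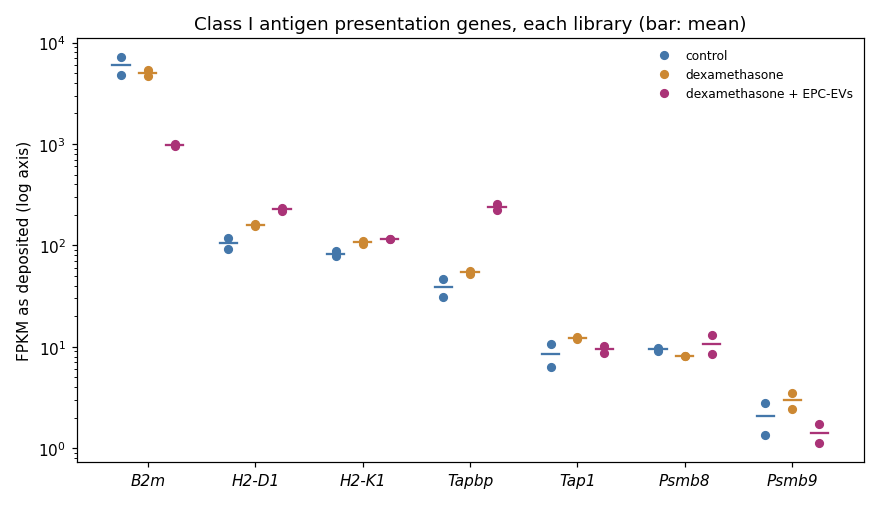
Deposited FPKM on a log axis of the 7 antigen presentation members in each library, with 1 point per library and a bar at the group mean. B2m drops to 966 and 1000 FPKM with EPC-EVs, Tapbp climbs to 221 and 255 FPKM, and Tap1 lies between 6.32 and 12.5 FPKM in all 6 libraries.

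Signal and transcription factors divided as well. Stat2, the interferon-specific STAT, was at 150 and 140 CPM in control, 147 and 167 CPM in dexamethasone and 242 and 287 CPM in dexamethasone + EPC-EVs, and rose by a log2 fold change of 0.71 ± 0.14 (edgeR's quasi-likelihood test, adjusted p = 0.00217). Irf9, its DNA-binding partner, was at 37.8 and 43.4 CPM, 39.3 and 40.2 CPM, and 39.9 and 49.9 CPM in the same order of groups, a log2 difference with EPC-EVs of 0.13 ± 0.20 (edgeR, adjusted p = 0.644). Those groups overlapped. Irf7 was at 29.1 and 43.1 CPM with EPC-EVs, on both sides of its dexamethasone values, with a log2 difference of -0.03 ± 0.24 (edgeR, adjusted p = 0.932). Irf1, which drives class I and immunoproteasome genes after interferon gamma, was at 71.0 and 63.3 CPM in control, 64.3 and 72.0 CPM in dexamethasone and 44.3 and 19.3 CPM in dexamethasone + EPC-EVs. It fell by 1.15 ± 0.32 on the log2 scale (edgeR, adjusted p = 0.0151), and the EPC-EVs libraries stood far apart from each other, both below the other 4. The difference was -1.85 without EPC-EVs replicate 1 and -0.65 without EPC-EVs replicate 2, and was called both times.

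Among the RNA sensors only Ddx58, which encodes RIG-I, was called. Its values were 83.4 and 116 CPM in control, 104 and 110 CPM in dexamethasone and 137 and 171 CPM with EPC-EVs, and the log2 fold change was 0.48 ± 0.15 (edgeR, adjusted p = 0.0259). Ifih1, which encodes the long-RNA sensor MDA5, Dhx58, which encodes the regulator LGP2, and Trim25, a ubiquitin ligase that acts on RIG-I, had negative log2 differences and were not called. Ifih1 ranged over the 6 libraries from 17.0 to 26.8 CPM, Dhx58 from 11.5 to 29.3 CPM and Trim25 from 123 to 158 CPM.

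Of the 13 direct antiviral effectors tested, 4 fell and 1 rose (30.8% and 7.69%, beside 18.9% and 20.9% of all genes). Samd9l, a restriction factor that stops viral translation, was at 297 and 298 CPM in control, 259 and 262 CPM in dexamethasone and 64.2 and 77.8 CPM in dexamethasone + EPC-EVs. It fell 3.79-fold, a log2 fold change of -1.92 ± 0.15 (edgeR's quasi-likelihood test, adjusted p = 3.75e-06), with no overlap between the groups. Oasl2, a member of the oligoadenylate synthetase family, was at 161 and 160 CPM, 142 and 141 CPM, and 71.1 and 85.1 CPM in the 3 groups, a log2 fold change with EPC-EVs of -0.90 ± 0.15 (edgeR, adjusted p = 0.000672). Eif2ak2 encodes PKR, the kinase that halts translation on double-stranded RNA. Its values were 235 and 288 CPM, 216 and 218 CPM, and 114 and 140 CPM, a log2 fold change of -0.82 ± 0.14 (edgeR, adjusted p = 0.000901). Bst2 was at 69.0 and 55.6 CPM in dexamethasone and 47.0 and 38.3 CPM in dexamethasone + EPC-EVs, between the levels of the other groups, and fell by 0.59 ± 0.20 on the log2 scale (edgeR, adjusted p = 0.0336). All 4 genes had lower values in both EPC-EVs libraries than in both dexamethasone libraries.

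Adar, the enzyme that edits adenosine in double-stranded RNA, was the effector that rose. It was at 91.1 and 47.6 CPM in control, 88.7 and 81.1 CPM in dexamethasone and 125 and 163 CPM with EPC-EVs, and its log2 fold change was 0.71 ± 0.16 (edgeR, adjusted p = 0.00486). Ifit1 was at 77.2 and 123 CPM with EPC-EVs, of which the lower lay between its dexamethasone values, a log2 difference of 0.32 ± 0.21 (edgeR, adjusted p = 0.246). The remaining effectors were not called. Among these the RNA-binding Ifit2 ranged over the 6 libraries from 36.3 to 69.5 CPM and Ifit3 from 53.9 to 83.1 CPM, the guanylate-binding proteins Gbp2 from 24.2 to 43.3 CPM and Gbp3 from 23.7 to 43.9 CPM, Mx1 from 8.63 to 32.8 CPM and Mx2 from 7.13 to 20.5 CPM. Rsad2, which encodes viperin, was lower still, at 3.22 to 10.2 CPM.

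Isg15, the ubiquitin-like modifier, was at 15.9 and 14.7 CPM with EPC-EVs against 27.4 and 16.5 CPM in dexamethasone, a log2 difference of -0.57 ± 0.31 (edgeR's quasi-likelihood test, adjusted p = 0.163). Usp18, the protease that removes ISG15 and also damps the interferon receptor, was at 19.9 and 9.95 CPM in control, 20.8 and 27.2 CPM in dexamethasone and 32.2 and 48.8 CPM in dexamethasone + EPC-EVs. Its log2 fold change with EPC-EVs was 0.71 ± 0.26 (edgeR, adjusted p = 0.0484), the called member nearest to the threshold. The modifier and its protease thus had values on opposite sides of 0, and as counted only the protease was called. That call was lost with RLE size factors, upper quartile normalization, DESeq2 and all 6 libraries in one fit. With the GC and length trend removed Usp18 lost it too (0.47, edgeR, adjusted p = 0.206), and Isg15 was called lower (-0.88, edgeR, adjusted p = 0.0414).

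Of the 9 other interferon-stimulated genes, 3 rose and 1 fell (33.3% and 11.1%, beside 20.9% and 18.9% of all genes). Ifi35, an interferon-induced leucine zipper protein, was at 10.4 and 4.78 CPM in control, 14.1 and 11.2 CPM in dexamethasone and 47.6 and 35.6 CPM with EPC-EVs, a 3.18-fold rise with a log2 fold change of 1.67 ± 0.26 (edgeR, adjusted p = 0.000425). Parp12, a mono-ADP-ribosyltransferase, was at 48.7 and 48.4 CPM, 46.9 and 41.7 CPM, and 72.8 and 84.5 CPM, a log2 fold change of 0.78 ± 0.18 (edgeR, adjusted p = 0.00481). Lgals3bp, a secreted glycoprotein, was also called higher, at 255 and 275 CPM in dexamethasone and 330 and 418 CPM in dexamethasone + EPC-EVs. In these 3 genes both EPC-EVs libraries were above both dexamethasone libraries. Xaf1, a pro-apoptotic antagonist of XIAP, was at 67.3 and 68.3 CPM, 62.9 and 66.5 CPM, and 32.1 and 45.3 CPM, and fell by 0.79 ± 0.21 on the log2 scale (edgeR, adjusted p = 0.0106). Ifi44, Rtp4, Parp14 and the partners Parp9 and Dtx3l, which share a bidirectional locus, were not called and ranged from 19.4 to 71.2 CPM.

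**Figure D3:**
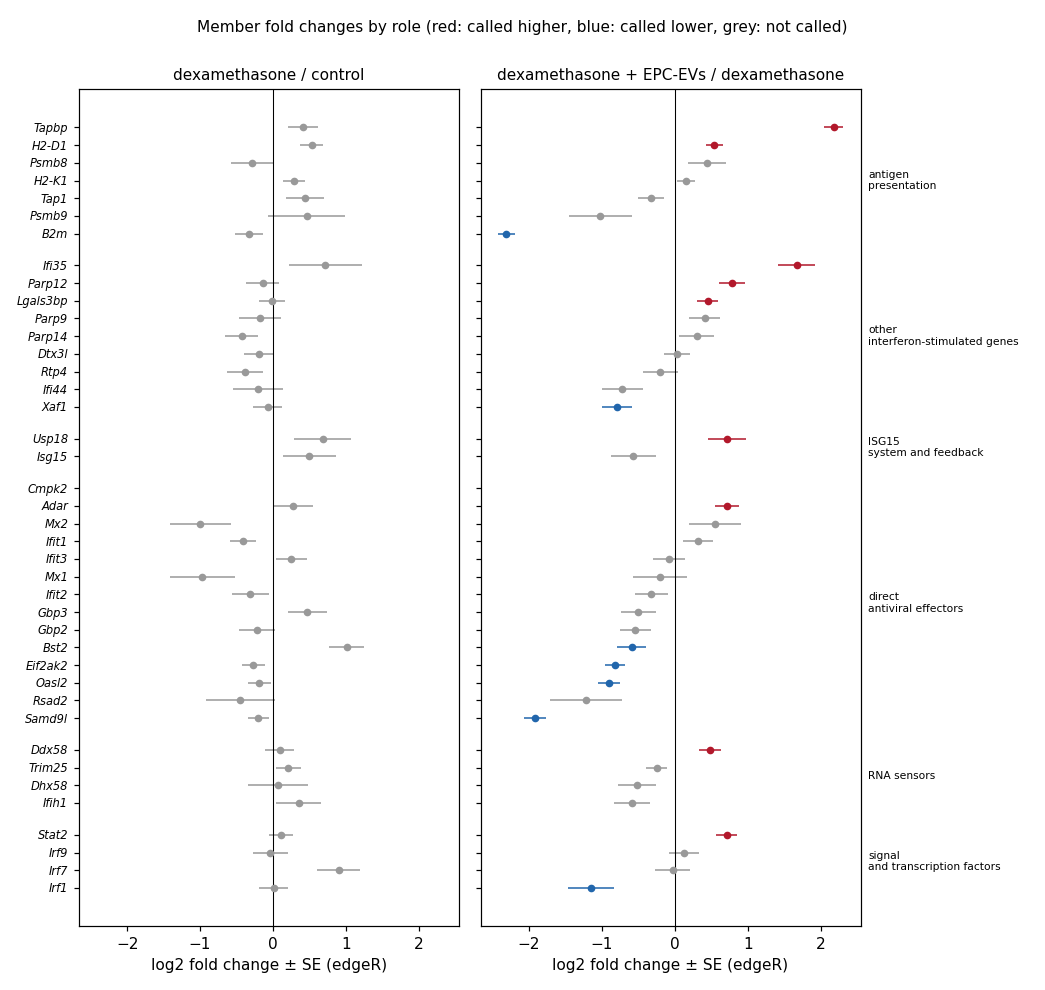
edgeR log2 fold changes with their SE (horizontal bars) for the members, grouped by role, for dexamethasone against control on the left and dexamethasone + EPC-EVs against dexamethasone on the right, with red for called higher, blue for called lower and grey for not called (Cmpk2 was not tested). No member is coloured on the left, and on the right 9 are red and 7 blue, from -2.31 for B2m to 2.18 for Tapbp. The 2 panels share the dexamethasone libraries.

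Members with the ISRE core were called in both directions. Of the 12 members with a core in the promoter window, 2 rose with EPC-EVs (Ddx58 and Stat2), 3 fell (B2m, Bst2 and Eif2ak2) and 7 were not called. Of the 7 with the gamma-activated site core, Adar and Ifi35 rose, Bst2, Eif2ak2 and Irf1 fell, and Ifit2 and Psmb8 were not called. These are few genes, beside 20.9% of all genes called higher and 18.9% lower. Whether either core goes with a direction was not tested. With the GC and length trend removed Ifit1 was also called higher and Isg15 lower, and Adar lost its call. As counted, the members called inside the MHC region of chromosome 17 were Tapbp and H2-D1, both higher. H2-K1, Psmb8, Psmb9 and Tap1 of the same region were not called. With the GC and length trend removed H2-D1 lost its call, and H2-K1, Psmb9 and Tap1 were called lower.

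Base composition moved with the direction of the calls over all genes, and among the members in those called higher. Members called higher with EPC-EVs had a median transcript GC content of 53.4%, members called lower 47.4% and members not called 47.5%. Over all genes the medians were 54.2%, 43.8% and 48.5% in the same order. After a trend on GC content and gene length was removed from each library, 19 members were called, 6 higher (15.4%) and 13 lower (33.3%). Among all genes 14.3% were then called higher and 16.7% lower. The members' share called lower was thus no longer near that of all genes. Of the 16 members called before, 12 were among the 19. Adar, H2-D1, Lgals3bp and Usp18 were lost, Lgals3bp at a log2 difference of -0.15, and Dhx58, H2-K1, Isg15, Psmb9, Tap1, Trim25 and Ifit1 were gained, of which Ifit1 was higher and the others lower. The largest changes as counted shrank and kept their call: B2m to -1.47, Samd9l to -1.14, Tapbp to 1.50 and Ifi35 to 1.20 on the log2 scale. Other negative differences grew, from -1.15 to -1.54 for Irf1, from -1.02 to -1.49 for Psmb9 and from -0.59 to -1.14 for Bst2, so that Irf1 and Psmb9 then lay slightly below B2m. Isg15 and Tap1 then had log2 differences of -0.88 (edgeR's quasi-likelihood test, adjusted p = 0.0414) and -0.91 (adjusted p = 0.00248).

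**Figure D4:**
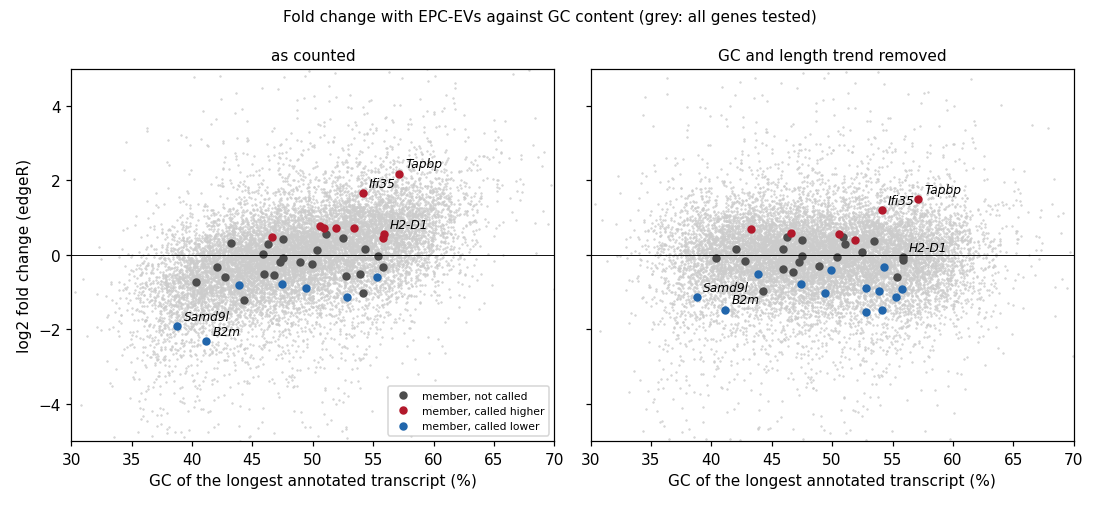
log2 fold change between dexamethasone + EPC-EVs and dexamethasone against the GC content of each gene's longest annotated transcript, as counted (left) and with the trend on GC content and length removed (right), with all genes tested in grey and members in dark grey, red (called higher) or blue (called lower). The grey cloud slopes upwards on the left and is level on the right, where H2-D1 moves from 0.54 to -0.06 and B2m, Samd9l, Tapbp and Ifi35 stay called; grey points beyond the axes are not drawn.

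All 6 libraries in one fit ended the calls of Adar, Bst2, Ddx58, Lgals3bp and Usp18, and those of Adar, Bst2, Ddx58 and Usp18 at nearly the same log2 fold changes, 0.73, -0.57, 0.50 and 0.73 (edgeR, adjusted p = 0.0562, 0.0778, 0.0763 and 0.139). Single libraries changed the calls too. Without dexamethasone replicate 2 the calls dropped to 7 (3 higher and 4 lower, among all genes 12.1% and 10.1%), and without dexamethasone replicate 1 to 10 of 40, where 26.0% of all genes were called. Bst2, Ddx58, Irf1, Lgals3bp, Usp18 and Xaf1 lost their call without either of them, Stat2 without replicate 1, and Adar, H2-D1 and Parp12 without replicate 2. The log2 fold changes themselves moved little for Irf1 (-1.21 and -1.06), Xaf1 (-0.81 and -0.75) and Ddx58 (0.46 and 0.53), and more for Bst2 (-0.41 and -0.74) and Usp18 (0.54 and 0.92). Of the EPC-EVs libraries, leaving out replicate 1 ended the call of Xaf1, and leaving out replicate 2 those of Bst2, Ddx58, Lgals3bp and Usp18, with Usp18 at 0.40. Tapbp and Ifi35 among those higher, and B2m, Samd9l, Oasl2 and Eif2ak2 among those lower, were called under each of the 12 other settings tried with an adjusted p, leaving out each library included, where a lone library is assumed to vary like the pair of the other group. Over the same libraries the summed CPM of the leukocyte markers was 19.1 to 26.2 in control and dexamethasone and 43.2 and 87.5 with EPC-EVs, with the 37.0 CPM of Csf1r in replicate 2. The summed endothelial markers, nearly all of them Cd34, were 361 to 416 CPM without and 290 and 243 CPM with EPC-EVs. The summed osteoblast markers were 15800 to 17500 CPM without and 29200 and 23400 CPM with EPC-EVs, where Col1a1, Col1a2 and Sparc were called higher, Spp1 was called lower (4410 and 6100 CPM against 10600 and 10700 in dexamethasone) and Runx2 was not called. The part of these in the members' values was not tested.

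The third comparison sets dexamethasone + EPC-EVs against control, with the same EPC-EVs libraries as the second, so it is not independent of it. Of 40 members tested, 7 were called higher and 8 lower (edgeR's quasi-likelihood test), or 17.5% and 20.0%, where 19.1% of all genes were called higher (2587 of 13511) and 17.2% lower (2329). The median log2 fold change was -0.07, and 0.02 over all genes. The members called higher were Tapbp, Ifi35, Usp18, H2-D1, Adar, Stat2 and Parp12, at log2 fold changes from 0.65 to 2.59. Those called lower were B2m, Samd9l, Rsad2, Irf1, Oasl2, Eif2ak2, Xaf1 and Gbp2, from -0.75 to -2.64.

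Set side by side, the values show which members with EPC-EVs lay beyond both other groups. Tapbp was 6.03-fold higher than in control (log2 2.59 ± 0.23, edgeR, adjusted p = 0.000301) and Ifi35 5.23-fold higher (log2 2.39 ± 0.41, adjusted p = 0.00291). B2m was 6.24-fold lower (log2 -2.64 ± 0.24, edgeR, adjusted p = 0.00031) and Samd9l 4.33-fold lower (log2 -2.11 ± 0.19, adjusted p = 0.000306). With the GC and length trend removed these 4 kept their call at smaller log2 fold changes, 1.48 for Tapbp, 1.65 for Ifi35, -1.57 for B2m and -1.09 for Samd9l. H2-D1 was 2.11-fold higher (log2 1.08 ± 0.18, edgeR, adjusted p = 0.00294), with the dexamethasone libraries between control and EPC-EVs, but with the GC and length trend removed its log2 difference from control was 0.07 (adjusted p = 0.788). Viperin's gene Rsad2, at 9.94 and 10.2 CPM in control, 7.13 and 7.66 in dexamethasone and 3.33 and 3.22 with EPC-EVs, was called against control only (log2 -1.66 ± 0.52, edgeR, adjusted p = 0.0346), and whether the comparisons differ was not tested. Bst2 went the other way round: its EPC-EVs values of 47.0 and 38.3 CPM were above the control values of 31.9 and 29.5 CPM without a call against control, and its log2 difference from control turned from 0.43 to -0.46 with the GC and length trend removed. With the GC and length trend removed, 11 members were called against control, 3 higher and 8 lower, beside 11.1% and 15.1% of all genes, and the median of the members was -0.33. Of the 15 called before, 8 were among the 11, and Adar, Gbp2, H2-D1, Parp12, Rsad2, Stat2 and Usp18 were lost. Of these, Gbp2 stayed at nearly the same log2 difference, -0.70 after -0.75, and Rsad2 was then at -1.31, Usp18 at 1.01, Adar at 0.50, Stat2 at 0.35 and Parp12 at 0.28. Lgals3bp, not called against control as counted, was then called lower, at -0.54 (edgeR, adjusted p = 0.0421). Without EPC-EVs replicate 2 the calls dropped to 8, and without EPC-EVs replicate 1 to 11, where the share of all genes called dropped as well, from 36.4% to 24.6% and 25.1%. Irf1 lost its call without either control library and without EPC-EVs replicate 2, and Adar, Stat2 and Usp18 lost theirs without EPC-EVs replicate 2, as did Gbp2, Parp12 and Rsad2. Without EPC-EVs replicate 1 the calls of Gbp2, Parp12, Rsad2 and Xaf1 were lost, without control replicate 1 that of Gbp2, and without control replicate 2 those of Adar and Parp12, each time with the lone library assumed to vary like the pair of the other group. The log2 difference of Irf1 from control, -1.13 with all 4 libraries, was -1.83 without EPC-EVs replicate 1 and -0.63 without replicate 2, and that of Adar, 1.0, was 1.59 without control replicate 1 and 0.63 without control replicate 2.

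Genes of the same pathways outside the list were described from 6 further lists of 72 genes, of which 54 were tested between dexamethasone + EPC-EVs and dexamethasone. Of these, 10 were called higher and 18 lower (18.5% and 33.3%, beside 20.9% and 18.9% of all genes). Between dexamethasone and control none of 52 was called by edgeR's quasi-likelihood test. There 9 of the 52 had an unadjusted p under 0.05, beside 10.9% of all genes tested. No interferon gene could be tested: Ifng and Ifne had at most 0.398 CPM in any library, and the other 6 ligands are not analysed here. The receptor genes Ifnar1, Ifnar2, Ifngr1 and Ifngr2 were present, at 17.3 to 70.4 CPM, and were not called.

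Among 11 receptors and kinases of the pathway 2 rose and 2 fell (18.2% each, beside 20.9% and 18.9% of all genes). Jak2, the kinase of the interferon gamma receptor, was at 145 and 167 CPM in dexamethasone and 50.5 and 64.6 CPM with EPC-EVs, so that its log2 fold change was -1.49 ± 0.17 (edgeR, adjusted p = 4.75e-05). Jak1 fell by 0.38 ± 0.13 and Tyk2 rose by 0.73 ± 0.22 on the log2 scale (edgeR, adjusted p = 0.0374 and 0.02). The call of Jak1 was lost with all 6 libraries in one fit (-0.36, edgeR, adjusted p = 0.0966). With single libraries left out, Jak1 ranged from -0.3 to -0.43 and Tyk2 from 0.59 to 0.9. Neither was called in all of these fits. Socs1, a feedback inhibitor of JAK kinases, was at 0 in both control libraries, 1.75 and 1.32 CPM in dexamethasone and 4.44 and 6.91 CPM with EPC-EVs. Its log2 fold change was 1.83 ± 0.63 on few counts (edgeR, adjusted p = 0.0377). The call was lost with all 6 libraries in one fit (1.84, edgeR, adjusted p = 0.142). It was also lost without any single library, at log2 fold changes from 1.5 to 2.12.

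In the list of nucleic acid sensing 2 of 11 rose and 4 fell (18.2% and 36.4%, beside 20.9% and 18.9% of all genes). Zbp1, a sensor of Z-form nucleic acids that starts necroptosis, was at 51.6 and 24.9 CPM in control, 25.8 and 50.1 CPM in dexamethasone and 2.93 and 3.61 CPM in dexamethasone + EPC-EVs. Its log2 fold change of -3.58 ± 0.37 (edgeR's quasi-likelihood test, adjusted p = 2.68e-05) was larger in size than that of any member. Tlr3, the endosomal receptor for double-stranded RNA, and Mb21d1, which encodes the DNA sensor cGAS, fell by 1.55 ± 0.49 and 1.10 ± 0.35 (edgeR, adjusted p = 0.0248 and 0.0247). The call of Tlr3 was lost with all 6 libraries in one fit (-1.54, edgeR, adjusted p = 0.0508). With single libraries left out, Tlr3 ranged from -1.17 to -2.03 and Mb21d1 from -0.92 to -1.27. Neither was called in all of these fits. Irf5 rose from 18.1 and 21.6 CPM to 42.5 and 47.3 CPM, a log2 fold change of 1.13 ± 0.22 (edgeR, adjusted p = 0.00195).

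In the wider class I pathway 3 of 13 rose and 4 fell (23.1% and 30.8%, beside 20.9% and 18.9% of all genes). Calr and Pdia3, the chaperones calreticulin and ERp57 that sit with tapasin in the peptide-loading complex, fell where tapasin's gene rose. Calr was at 1770 and 1810 CPM in dexamethasone and 877 and 785 CPM in dexamethasone + EPC-EVs (log2 -1.15 ± 0.11, edgeR, adjusted p = 1.77e-05), and Pdia3 at 800 and 831 CPM and 387 and 445 CPM (log2 -1.02 ± 0.12, adjusted p = 6.64e-05). Psmb10, the remaining immunoproteasome subunit, was at 0.582 and 3.97 CPM and 11.8 and 10.4 CPM (log2 2.24 ± 0.65, edgeR, adjusted p = 0.0172, but 1.45 and not called without dexamethasone replicate 1, and 4.18 without replicate 2), and the non-classical class I gene H2-T23 at 30 and 26.6 CPM and 39.0 and 52.0 CPM (log2 0.64 ± 0.22, adjusted p = 0.04). The call of H2-T23 was lost with all 6 libraries in one fit (0.65, edgeR, adjusted p = 0.0788). With single libraries left out H2-T23 ranged from 0.44 to 0.84, and it was not called in all of these fits. Of the class II genes only 3 of 8 were tested, and H2-DMb1 was called higher (log2 0.89 ± 0.19, edgeR, adjusted p = 0.00335). The class II chains H2-Aa, H2-Ab1 and H2-Eb1 were at or below 6.77 CPM in every library.

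Further antiviral genes and interferon-induced chemokines gave the most calls in 1 direction, with 8 of 16 lower and 2 higher, beside 18.9% of all genes lower and 20.9% higher. Those called higher were Irgm1, an immunity-related GTPase (log2 0.96 ± 0.17, edgeR, adjusted p = 0.000827), and Oas1a, an oligoadenylate synthetase (log2 1.32 ± 0.45, edgeR, adjusted p = 0.0346). Ccl5 was at 17.9 and 11.9 CPM in control, 31.2 and 36.7 CPM in dexamethasone and 6.34 and 6.04 CPM in dexamethasone + EPC-EVs (log2 -2.50 ± 0.28, edgeR's quasi-likelihood test, adjusted p = 4.25e-05). Cxcl10, the other chemokine, was at 40.6 and 54.1 CPM, 22.3 and 23.7 CPM, and 2.85 and 6.04 CPM (log2 -2.41 ± 0.40, edgeR, adjusted p = 0.000597). The immunity-related GTPase Iigp1 was at 66.3 and 78.8 CPM, 58.2 and 74.5 CPM, and 11.2 and 13.9 CPM (log2 -2.45 ± 0.23, edgeR, adjusted p = 1.44e-05). For these 3 genes and for Oas3 (log2 -2.13 ± 0.47, edgeR, adjusted p = 0.004) the EPC-EVs libraries lay below the other 4. With the GC and length trend removed all 4 kept their call, at log2 fold changes from -1.66 to -2.85, and Irgm1 kept its call at 1.12, as did Jak2, Zbp1, Mb21d1, Calr and Pdia3, whereas 9 named genes lost theirs. Among these 9 Jak1 stayed at nearly the same log2 difference, -0.35 (edgeR, adjusted p = 0.0536), and Tlr3 was at -0.90, Socs1 at 1.0, Oas1a at 1.01, Psmb10 at 1.55, Irf5 at 0.55, H2-DMb1 at 0.44, H2-T23 at 0.15 and Tyk2 at 0.10.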

How the data were processed

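The authors aligned the reads to GRCm38 with HISAT2 and counted them per gene with HTSeq 0.6.1, per the labels and the study's methods, and deposited raw counts. The FPKM deposited beside these counts were made by the authors from the same counts, scaled to gene length and library total. Transcript FPKM, which cover chromosome 1 and no member, were not used. Read trimming and the aligner cannot be repeated from these files, and how the counting treated strand is not given in the sources used here.

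Counts were fitted in edgeR 4.0.16 (R 4.3.3) with TMM normalization, filterByExpr, robust dispersions and quasi-likelihood F tests, with only the 4 libraries of a comparison in its fit. P-values were adjusted by Benjamini-Hochberg over all genes tested and called under 0.05. SE is the log2 fold change divided by the square root of its F statistic. CPM use TMM totals over the 6 libraries. Simulated counts were also put through the fit, but no outcome is given here, so this is no check of the calls. Alternatives were other normalizations, DESeq2 1.42.0, no filter, all 6 libraries, a replicate block, mitochondrial genes left out, the study's call rule (unadjusted p under 0.05, log2 fold change beyond 1.5), a GC and length trend taken out of each library (loess span 0.4), and leaving out each library. Coordinates, overlaps and GC content came from GENCODE vM21, which matched 21646 of 21686 genes (99.8%). Promoters came from RefSeq.

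The members, the lists and the tests were chosen with earlier results of these data known. Genes named with values are the called members of each comparison, up to 8 in each direction, the 6 smallest p where fewer were called, Isg15, Ifit1, Irf7, Irf9, Stat2, B2m, Tap1, Psmb8, H2-K1 and H2-D1, and up to 4 called genes of each further list. Other members, and the receptor, class II and marker genes named beside these, are given by their levels. A lack of overlap between groups, where stated for genes picked by their p, describes them and is no separate support. The sequences printed were chosen after the values were seen. No per-sample column was left out.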

Additional observations from a re-analysis of the deposited data

How the results depend on the processing

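With 2 libraries per group a call rests on few degrees of freedom, and depth and treatment are confounded for EPC-EVs. The replicate numbers do not pair the libraries (correlations of deviations 0.062, 0.03 and 0.002), and with the replicate block the calls were 0 in dexamethasone against control (0.334% of all genes), 9 higher and 8 lower with EPC-EVs against dexamethasone (20.9% and 18.7%), and 7 and 7 with EPC-EVs against control (18.6% and 16.0%). In dexamethasone against control, 1 member was called higher without a filter on low counts (0.604% of all genes). In dexamethasone + EPC-EVs against dexamethasone, all 6 libraries in one fit gave 5 higher (15.2% of all genes), the study's call rule 2 higher and 2 lower (7.05% and 7.13%), and removal of the GC and length trend 13 lower (16.7%). In dexamethasone + EPC-EVs against control, that rule gave 2 higher and 3 lower (11.2% and 9.52%), and trend removal 3 higher (11.1%) and a median of -0.33. Gbp2 or Parp12, or both, lost the call against control with upper quartile normalization, DESeq2, no filter, mitochondrial genes left out and the block, which also ended that of Rsad2. The causes were not tested.

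Among the members whose fold changes are named, trend removal turned the sign of Stat2 (-0.06) and H2-K1 (-0.04) in dexamethasone against control, of H2-D1 (-0.06), Irf9 (-0.07), H2-K1 (-0.33) and Lgals3bp (-0.15) against dexamethasone, and of Ifit1 (0.38), Irf7 (-0.03), Irf9 (-0.22), Tap1 (-0.77), Psmb8 (-0.44), Bst2 (-0.46), H2-K1 (-0.37) and Lgals3bp (-0.54) in dexamethasone + EPC-EVs against control. Without a filter, Irf7 against dexamethasone was 0.00. Of these, H2-K1 against dexamethasone and Tap1 and Lgals3bp against control passed the threshold in their new direction.

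Leaving out each library in turn, the calls in dexamethasone against control ranged from 0 to 7 higher and 0 to 3 lower (0.0294% to 9.25% and 0.0367% to 6.8% of all genes), Irf9 from -0.12 to 0.08 and B2m from -0.60 to 0.02. Against dexamethasone the calls ranged from 3 to 11 higher and 4 to 7 lower (12.1% to 18.2% and 10.1% to 16.6%), the median from -0.32 to 0.08, Ifit1 from -0.04 to 0.63, Irf7 from -0.32 to 0.24 and Irf9 from -0.02 to 0.29. In dexamethasone + EPC-EVs against control the calls ranged from 3 to 10 higher and 5 to 9 lower (13.3% to 24.6% and 11.3% to 18.2%), the median from -0.24 to 0.03, Isg15 from -0.15 to 0.11, Ifit1 from -0.45 to 0.22, Irf9 from -0.06 to 0.26, Tap1 from -0.18 to 0.56 and Psmb8 from -0.17 to 0.44.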
